A study of Mus musculus with 9 samples.

Results

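The genes described here are the protein-coding neighbours of Nrep, the gene for P311, on mouse chromosome 18. They are the protein-coding genes of that chromosome that begin between positions 13437019 and 53464029, which is 20 Mb before the start of Nrep to 20 Mb after its end, and that reach at least 0.5 FPKM (read number scaled to the length of the gene and to the size of the library) in at least 3 of the 9 libraries. Of 282 protein-coding genes in the window, 154 reached that level. Nrep itself and Lox were taken out by name, which left 152 of the 54532 genes in the table. The other 128 protein-coding genes of the window stayed under the level, and 32 of them were listed at 0 in all 9 libraries. The members were thus chosen by position and by expression level, and the level, the only measured value used, was applied without regard to the group. No gene reached it through the libraries of 1 group alone, but some, among them Cdh2 and Gm94, reached it only in wild-type libraries. Pcdhb16, Pcdhgb6, Arhgap26 and Fchsd1 lay just inside it, with a third-highest value of 0.510, 0.517, 0.526 and 0.532 FPKM. B930094E09Rik, Dnd1, Spink5 and Pcdhgb2 lay just outside it, at 0.401, 0.363, 0.353 and 0.345 FPKM.

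P311 is a small intracellular protein first found in the nervous system, and it is known to raise the translation of transforming growth factor beta, a signal of wound repair and fibrosis. When a deletion is carried through mouse breeding, the DNA on both sides of it is inherited with it until recombination separates them, so neighbouring genes can keep the alleles of the strain in which the deletion was made. A deletion can also take away regulatory DNA that acts on nearby genes. Both points are background, and neither was tested here.

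RNA was sequenced from the tibialis anterior, a muscle at the front of the lower hind leg, after an injury. Old P311-/- mice gave 3 libraries, old wild-type mice, aged 24 months, gave 3, and young wild-type mice, aged 4 to 6 months, gave 3. Neither the kind of injury, its timing, the strain of any group, the exact age of the P311-/- mice nor the way the deletion was made is given in the sources used here. Whether replicates are separate animals is also left unsaid, so a p-value speaks only of the spread among these 9 libraries, which may be technical. In whole muscle, fewer cells of a type and less RNA per cell cannot be told apart. The markers of muscle fibres (Acta1, Ckm, Mb, Ttn, Des, Myh4 and Tnnt3) together reached at least 29634 FPKM in every library.

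Nrep (ENSMUSG00000042834, chromosome 18, 33437019 to 33464029) stood at 14.8, 6.37 and 9.72 FPKM in old P311-/- muscle, against 72.4, 71.4 and 83.1 FPKM in old wild type and 86.3, 72.6 and 63.9 FPKM in young wild type. Every P311-/- library lay far under every wild-type library. The log2 fold change was -2.94 with a standard error (SE) of 0.26 against old wild type, and the adjusted p was 0.0036. The library labels and the targeted gene therefore go together, although the gene was not listed at 0 in any P311-/- library. The sources used here do not say which part of it was deleted.

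Old P311-/- replicate 1 stood apart from replicates 2 and 3 of its group over the tested members, and also over all genes tested. The median absolute log2 difference over the members was 0.334 between P311-/- replicates 1 and 2 and 0.310 between replicates 1 and 3, against 0.206 between replicates 2 and 3. From P311-/- replicate 1 to old wild-type replicates 1 and 3 it was 0.218 and 0.219. Over all genes tested the median was 0.371 between P311-/- replicates 1 and 2, 0.338 between replicates 1 and 3 and 0.219 between replicates 2 and 3. In the order of replicates 1, 2 and 3, the summed macrophage and leukocyte markers were 102, 51.8 and 66.4 FPKM in P311-/- muscle, and the fibroblast markers 441, 278 and 303 FPKM. In the same order the adipocyte markers were 27.0, 7.68 and 10.7 FPKM, those of T and B cells 4.03, 0.913 and 0.842 FPKM and those of Schwann cells 2.86, 8.44 and 6.82 FPKM. The part of these cells in the results was not tested, and results that turn on this library are given with and without it.

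Tests were made with limma on log2 of FPKM plus 0.1, fitted over all 14233 genes with enough reads, with p-values adjusted over all of them by the Benjamini-Hochberg method. A gene counts as called at an adjusted p under 0.05. Of the 152 genes, 150 were tested; the predicted gene Gm9955 and Spinkl had too few reads. Mean levels ran from 0.369 to 446 FPKM with a median of 4.36 FPKM, near the 4.29 FPKM of all protein-coding genes tested. On the genome as numbered in the deposited table, which is that of GRCm38, 46 of the 152 genes lie at lower coordinates than Nrep and 106 at higher ones. Distances are gaps between gene bodies in that table. Of 151 members also in GENCODE M21, 72 have the same boundaries there; the median boundary difference was 1 base and the highest 391611 bases.

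Setting old P311-/- beside old wild-type muscle asks what differs with the deletion in old mice. No flanking gene was called higher or lower. Among the nearest genes, Bin1, Gypc, Wdr36, Reep5 and Apc had log2 fold changes between -0.21 and 0.14, while Srp19 and Pkd2l2 gave -0.49 and -0.66. The lowest p-values belonged to genes whose level was lower in old P311-/- muscle, among them Zmat2, Igip, Pkd2l2 and Paip2, and none of these passed the adjustment.

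Bin1 (ENSMUSG00000024381, chromosome 18, 32377217 to 32435736), a membrane-bending protein of the transverse tubules, is the most abundant gene within about 1 Mb. It stood at 228, 303 and 308 FPKM in old P311-/- muscle, against 267, 274 and 272 FPKM in old wild type and 221, 270 and 225 FPKM in young wild type. P311-/- replicate 1 was the lowest of the old libraries and the other two were the highest, so the groups overlapped. The log2 fold change against old wild type was 0.03 (SE 0.15, adjusted p = 0.930 by limma).

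Toward lower coordinates the nearest gene was Stard4, which carries sterols between membranes, at 0.22 Mb. It had 1.92, 0.941 and 1.97 FPKM in old P311-/- muscle, 1.16, 1.51 and 1.12 FPKM in old wild type and 1.26, 1.06 and 1.40 FPKM in young wild type. The P311-/- libraries lay on both sides of the wild-type ones. Wdr36, a nucleolar protein of ribosome assembly, Tslp, an epithelial and stromal cytokine, and Gypc, a membrane glycoprotein of red cells, followed within 1 Mb with log2 fold changes of -0.14, -0.22 and 0.05 against old wild type. Ercc3, a helicase of the general transcription factor TFIIH, stood at 5.64, 6.00 and 6.18 FPKM in old P311-/- muscle, against 5.43, 5.28 and 5.49 FPKM in old wild type. The 2 groups did not overlap, but the log2 fold change was only 0.13 (SE 0.11, adjusted p = 0.558 by limma).

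Toward higher coordinates the predicted gene Gm10549 begins 134 bases beyond the end of Nrep, and it was singled out for its position. It had 12, 1 and 3 reads in the P311-/- libraries, against 5, 12 and 12 reads in old wild type and 7, 8 and 6 reads in young wild type. P311-/- replicate 1 lay within the wild-type range per library size, and the other two lay under all 6 wild-type libraries, at 0.124 and 0.221 FPKM. With so few reads the log2 fold change was -1.36 (SE 0.57, adjusted p = 0.292 by limma). Whether counting used strand is unknown, so reads of this gene and of the end of Nrep may not be fully separated.

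Next on that side came Epb41l4a, a band 4.1 family protein of cell junctions. It had 0.537, 1.15 and 1.51 FPKM in old P311-/- muscle, against 0.479, 1.19 and 0.645 FPKM in old wild type, and the groups overlapped. Apc, the scaffold that restrains Wnt signalling, had 2.61, 3.06 and 3.05 FPKM in old P311-/- muscle, against 2.69, 2.74 and 2.44 FPKM in old wild type, and again the groups overlapped. Reep5, which shapes the endoplasmic reticulum and is abundant in muscle, averaged 65.8 ± 7.62 FPKM in old P311-/- muscle and 75.8 ± 3.79 FPKM in old wild type (SD, n = 3 each), a log2 difference of -0.21 (SE 0.12) that did not pass the test.

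Srp19, a protein of the signal recognition particle, and Pkd2l2, a channel protein of the polycystin family, were the only genes within 1 Mb whose old P311-/- and old wild-type libraries did not overlap. Srp19 stood at 12.6, 11.1 and 9.42 FPKM in old P311-/- muscle, against 13.1, 18.5 and 15.1 FPKM in old wild type. Pkd2l2 (ENSMUSG00000014503, chromosome 18, 34409423 to 34442789) stood at 2.22, 2.1 and 1.64 FPKM in old P311-/- muscle, against 2.89, 3.67 and 3.03 FPKM in old wild type and 3.52, 2.65 and 2.70 FPKM in young wild type. All 3 P311-/- libraries lay under all 6 wild-type libraries for Pkd2l2. Its log2 fold change against old wild type was -0.66 (SE 0.18, adjusted p = 0.243 by limma), so the difference did not pass the test. Its body overlaps that of Fam13b, whose log2 fold change was -0.21, and reads of the overlap may not be fully separated.

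**Figure D1:**
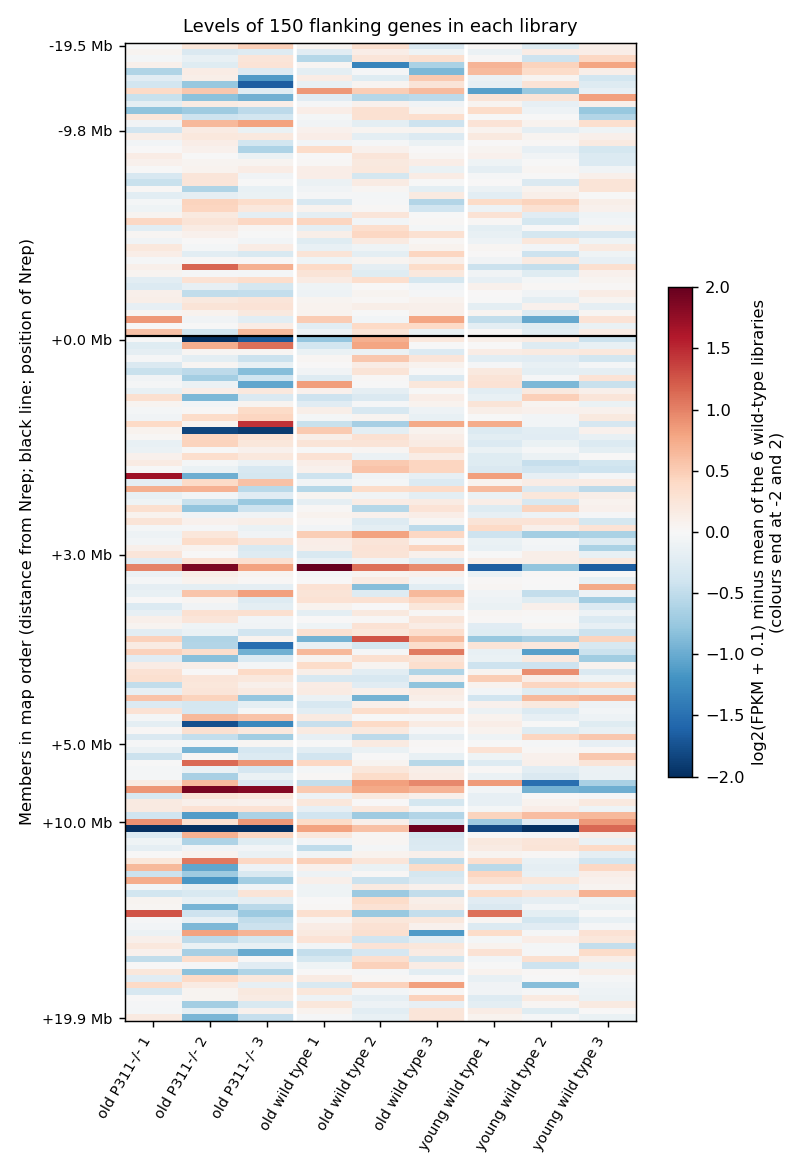
Difference of each of the 150 tested flanking genes from its own mean over all wild-type libraries, as log2 of FPKM plus 0.1. The wild-type libraries are those of old and young mice, and the P311-/- libraries are not part of this mean. Rows are genes in order of position on chromosome 18, and columns are libraries (old P311-/-, old wild type, young wild type). The column of P311-/- replicate 1 differs from those of replicates 2 and 3, with a median absolute log2 difference of 0.334 and 0.310, against 0.206 between replicates 2 and 3.

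Counted over all members, old P311-/- against old wild type gave 0 calls among 150 genes, where limma called 0.0703% of all genes tested, and the lowest adjusted p of a member was 0.237. The voom fit on the recovered reads also called 0 members, and its share of all genes tested is not given here. At an unadjusted p under 0.05 there were 22 members, or 14.7%, against 16.1% of all genes tested. Of these, 4 were higher and 18 lower in old P311-/- muscle, where 7.59% of all genes tested were higher and 8.54% lower. The groups did not overlap for 25 members, or 16.7%, against 18% of all genes tested. Here 4 members were higher and 21 lower, where 8.64% of all genes tested were higher and 9.39% lower. The median log2 fold change was -0.07 over the members and -0.004 over all genes tested. The median absolute log2 fold change was 0.22 over the members, 0.22 over the 173 tested protein-coding genes of chromosome 18 outside the window and 0.23 over all genes tested. The members' size of difference was therefore at the background of the genome and of the rest of their chromosome.

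In old P311-/- against old wild type the median size of the differences did not become larger toward Nrep. The median absolute log2 fold change of old P311-/- against old wild type was 0.22 over the 11 members under 1 Mb from Nrep and 0.20 over the 69 members from 1 to 5 Mb. It was 0.19 over the 26 tested members from 5 to 10 Mb and 0.30 over the 44 tested members from 10 to 20 Mb. The median within 5 Mb less that from 5 to 20 Mb was -0.05. Against young wild type the medians in the same 4 bins, nearest first, were 0.29, 0.23, 0.12 and 0.28, with 0.26 over all genes tested. There the bin under 1 Mb, of 11 members, had the largest median. Across the 150 genes, Spearman's rho between distance and absolute log2 fold change was 0.06 for old P311-/- against old wild type and 0.03 against young wild type, and it was 0.01 for old against young wild type. These correlations describe genes that share libraries and are not independent replicates. Old P311-/- and old wild-type libraries did not overlap for 18.2% of members under 1 Mb, 20.3% from 1 to 5 Mb, 15.4% from 5 to 10 Mb and 11.4% from 10 to 20 Mb. That is 20% within 5 Mb and 12.9% beyond, against 18% of all genes tested. The members at an unadjusted p under 0.05 numbered 3 of 11 under 1 Mb, 9 of 69 from 1 to 5 Mb, 3 of 26 from 5 to 10 Mb and 7 of 44 from 10 to 20 Mb. The 3 nearest were Gm10549, Srp19 and Pkd2l2, all lower in old P311-/- muscle and all at higher coordinates, while 0 of the 17 members within 5 Mb at lower coordinates had such a p.

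**Figure D2:**
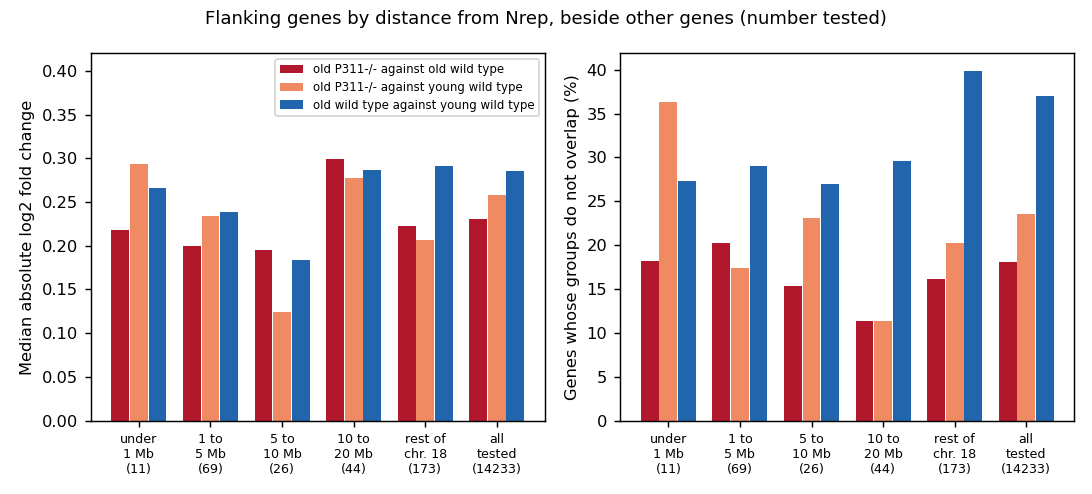
Median absolute log2 fold change (left panel) and percent of genes whose libraries do not overlap between the groups (right panel) for the tested members by distance from Nrep, for the protein-coding genes of the rest of chromosome 18 and for all genes tested, with a bar for each of the 3 pairwise comparisons and the number of genes in brackets. For old P311-/- against old wild type the left value is 0.22 under 1 Mb and 0.30 from 10 to 20 Mb, and the right value is 18.2% and 11.4%.

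Against young wild-type muscle, old P311-/- muscle differs in age as well as genotype. Here 2 of the 150 members were called, Sh3rf2 higher and Dpysl3 lower, which is 1.33% of the members, against 0.4% of all genes tested (0.155% higher and 0.246% lower). Both lie over 8 Mb from Nrep, and no member within 5 Mb was called. At an unadjusted p under 0.05, 13 members were higher and 13 lower, or 17.3% together, against 21.4% of all genes tested (10.9% higher and 10.6% lower). The groups did not overlap for 27 members, or 18%, against 23.5% of all genes tested. They included 4 of the 11 members under 1 Mb.

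Sh3rf2 (ENSMUSG00000057719, chromosome 18, 42053667 to 42158960), a RING and SH3 domain protein that acts on stress kinase signalling, lies 8.59 Mb from Nrep at higher coordinates. It stood at 6.77, 13.9 and 13.3 FPKM in old P311-/- muscle, against 5.30, 6.25 and 5.91 FPKM in old wild type and 3.52, 1.84 and 1.80 FPKM in young wild type. The 3 groups did not overlap, and P311-/- replicate 1 lay closer to the old wild-type libraries than to the other two of its group. Sh3rf2 rose in old P311-/- against young wild-type muscle by 2.2 (log2; SE 0.31, adjusted p = 0.030 by limma). It also rose in old against young wild-type muscle, by 1.32 (SE 0.31, adjusted p = 0.045), while old P311-/- against old wild type gave 0.88 (SE 0.31, adjusted p = 0.266). These comparisons share libraries.

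Dpysl3 (ENSMUSG00000024501, chromosome 18, 43320979 to 43438286), a phosphoprotein of the cytoskeleton best known from growing axons, lies 9.86 Mb away on the same side. It had 5.74, 3.46 and 4.84 FPKM in old P311-/- muscle, 5.79, 4.59 and 5.0 FPKM in old wild type and 10.3, 11.7 and 11.9 FPKM in young wild type. Both old groups overlapped each other and lay under every young library. Dpysl3 fell in old P311-/- against young wild-type muscle, with a log2 fold change of -1.28 (SE 0.18, adjusted p = 0.030 by limma), and in old against young wild-type muscle, with -1.13 (SE 0.18, adjusted p = 0.030).

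The 2 calls against young wild type depended on single libraries. Without P311-/- replicate 1 there were 25 called members, or 16.7%, against 19.6% of all genes tested. Without young wild-type replicate 1 there was 1, and without P311-/- replicate 2 or 3, old wild-type replicate 2 or 3, or young wild-type replicate 2 or 3 there were 0. For these fits the share of all genes called is not given here. Their counts therefore cannot be read apart from the whole table. Over the 9 fits that leave out 1 library, the adjusted p ran from 0.0020 to 0.140 for Sh3rf2 and from 0.0024 to 0.136 for Dpysl3.

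**Figure D3:**
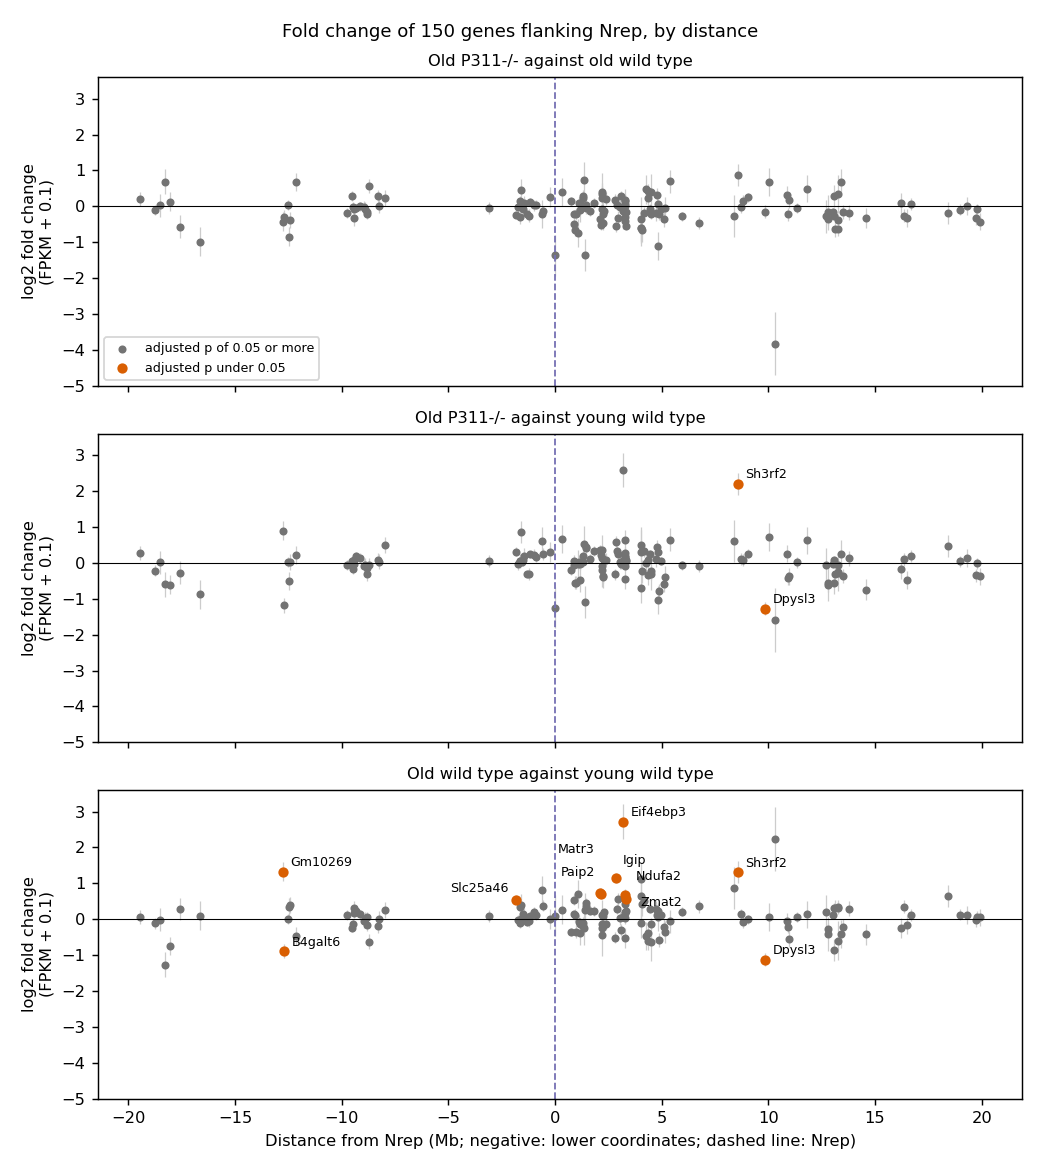
Log2 fold change of each tested member (vertical axis, with its standard error) against its distance from Nrep (horizontal axis, Mb, negative toward lower coordinates) in the 3 pairwise comparisons, with called members in orange and named. No member is orange for old P311-/- against old wild type, 2 are against young wild type, and 11 are for old against young wild type.

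Old against young wild-type muscle leaves the deletion out and shows the members' difference with age after injury. It had the most calls of the flanking genes: 9 were higher and 2 lower in old wild-type muscle, or 7.33% of the members, against 5.4% of all genes tested (3.39% higher and 2.01% lower). The higher ones were Igip, Eif4ebp3, Matr3, Gm10269, Paip2, Zmat2, Slc25a46, Sh3rf2 and Ndufa2, and the lower ones Dpysl3 and B4galt6. Of the 9 higher ones, 7 lie within 5 Mb of Nrep, as do 80 of the 150 tested members. At an unadjusted p under 0.05 there were 30 members, or 20%, against 26.3% of all genes tested. The groups did not overlap for 43 members, or 28.7%, against 37.1% of all genes tested and 39.9% of the tested protein-coding genes of the rest of chromosome 18.

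Of the cell type markers, only Col1a1, a collagen gene of the fibroblast list, was called in old against young wild-type muscle. The summed fibroblast markers were 364 to 437 FPKM in old wild type, against 561 to 600 FPKM in young wild type. Col1a1 fell, with a log2 fold change of -1.04 (SE 0.24, adjusted p = 0.044 by limma). Pdgfra and Dcn, the others of the list, gave -0.39 and 0.21 (adjusted p = 0.171 and 0.482 by limma), so the list did not move together. The summed macrophage and leukocyte markers were 74.4 to 111 FPKM in old wild type, against 103 to 157 FPKM in young wild type. These ranges overlapped, and none of the 4 markers passed the test. Their part in the flanking genes' values was not tested.

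Of the calls with age, 6 lay in 1 stretch of 1.24 Mb, from Matr3 to Zmat2, at 2.1 to 3.33 Mb from Nrep. This stretch was chosen after its values were seen and carries no test. It held 27 tested members, while 5.4% of all genes tested were called with age. Of the 27, 19 were above 0 for old against young wild type, against 92 of the 150 tested members and 7178 of all 14233 genes tested. The median log2 fold change of the 27 genes was 0.12 for old against young wild type, -0.02 for old P311-/- against old wild type and 0.09 for P311-/- against young wild-type muscle.

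Zmat2 (ENSMUSG00000001383, chromosome 18, 36793923 to 36799660), a zinc finger protein of the spliceosome, stood at 20.1, 21.1 and 17.7 FPKM in old P311-/- muscle, against 28.6, 27.2 and 29.3 FPKM in old wild type and 19.6, 20.2 and 17.3 FPKM in young wild type. Old wild type lay above both other groups, which overlapped each other. Zmat2 rose in old against young wild-type muscle, with a log2 fold change of 0.58 (SE 0.12, adjusted p = 0.033 by limma). Old P311-/- against old wild type gave -0.53 (SE 0.12, adjusted p = 0.237), the smallest p of any member in that comparison, and old P311-/- against young wild type gave 0.04 (SE 0.12, adjusted p = 0.856).

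Paip2 (ENSMUSG00000037058, chromosome 18, 35598617 to 35617186), which binds the poly(A)-binding protein and represses translation, stood at 51.9, 47.7 and 42 FPKM in old P311-/- muscle, against 55.2, 77.4 and 70.5 FPKM in old wild type and 43.0, 40.2 and 39.3 FPKM in young wild type. Old wild type was again the highest group, with its replicate 1 close to the P311-/- libraries. The log2 fold change was 0.72 for old against young wild type (SE 0.15, adjusted p = 0.035 by limma) and -0.51 for old P311-/- against old wild type (SE 0.15, adjusted p = 0.253).

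Igip (ENSMUSG00000110185, chromosome 18, 36300101 to 36301517), known as a secreted inducer of immunoglobulin A, had 8.76, 11.0 and 8.99 FPKM in old P311-/- muscle, against 13.3, 16.5 and 12.6 FPKM in old wild type and 7.08, 5.87 and 6.04 FPKM in young wild type. The 3 groups did not overlap, and the P311-/- libraries lay between the wild-type ones. Igip rose in old against young wild-type muscle by 1.14 (SE 0.15, adjusted p = 0.025 by limma). The values were -0.56 for old P311-/- against old wild type (adjusted p = 0.243) and 0.59 against young wild type (adjusted p = 0.101).

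Matr3, an RNA-binding protein of the nuclear matrix, averaged 11.5 ± 1.22 FPKM in old P311-/- muscle, 14.8 ± 2.01 FPKM in old wild type and 8.87 ± 0.681 FPKM in young wild type (SD, n = 3 each). It rose in old against young wild type by 0.73 (SE 0.14, adjusted p = 0.031 by limma). Slc25a46, a mitochondrial outer membrane protein on the other side of Nrep at 1.83 Mb, had 16.0, 16.5 and 15.5 FPKM in old P311-/- muscle, 16.9, 20.7 and 19.2 FPKM in old wild type and 14.0, 12.2 and 12.4 FPKM in young wild type. No 2 groups of Slc25a46 overlapped, old wild type being the highest and young wild type the lowest, with a log2 fold change of 0.55 for old against young wild type (SE 0.12, adjusted p = 0.036).

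Ndufa2, an accessory subunit of respiratory complex I, averaged 231 ± 24.5 FPKM in old P311-/- muscle, 305 ± 16.5 FPKM in old wild type and 193 ± 39.0 FPKM in young wild type (SD, n = 3 each). It rose in old against young wild type by 0.68 (SE 0.17, adjusted p = 0.049 by limma), and its body overlaps that of Tmco6. Eif4ebp3, a repressor of cap-dependent translation, had 11, 14 and 10 reads in the P311-/- libraries, 19, 7 and 9 reads in old wild type and 0, 1 and 0 reads in young wild type. The ratio to young wild type per library size was 23.6 in old P311-/- muscle (95% counting interval 3.96 to 958) and 28.9 in old wild type (4.86 to 1175), so its fitted fold change depends on the added 0.1 FPKM. The body of Eif4ebp3 lies within that of Ankhd1, and their reads may not be fully separated.

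Gm10269, a short predicted gene, had 3.68, 4.06 and 2.31 FPKM in old P311-/- muscle, 5.08, 3.89 and 4.34 FPKM in old wild type and 1.24, 1.61 and 2.45 FPKM in young wild type, from 7 to 41 reads per library. It rose in old against young wild type by 1.32 (log2; SE 0.27, adjusted p = 0.033 by limma); genes of this kind can share reads with copies elsewhere. B4galt6, an enzyme of lactosylceramide synthesis at 12.69 Mb, had 2.24, 1.71 and 1.54 FPKM in old P311-/- muscle, 2.62, 2.04 and 2.12 FPKM in old wild type and 3.69, 3.73 and 5.51 FPKM in young wild type. Both old groups lay under every young library. B4galt6 fell in old against young wild type, with a log2 fold change of -0.89 (SE 0.20, adjusted p = 0.043), and old P311-/- against young wild type gave -1.18 (SE 0.20, adjusted p = 0.051).

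The age calls depended on single libraries. In place of 11 called members there were 14 without P311-/- replicate 1, or 9.33%, against 12.3% of all genes tested. There were 7, or 4.67%, without P311-/- replicate 3 or without old wild-type replicate 1, against 3.06% and 3.93% of all genes tested. There was 1 without young wild-type replicate 1, and 0 without old wild-type replicate 2 or 3 or young wild-type replicate 2 or 3. For the fits without young wild-type replicate 1 or 2 or old wild-type replicate 3, the share of all genes called is not given here. With old wild-type replicate 2 or young wild-type replicate 3 left out, limma called no gene of the whole table, with 2737 and 2741 genes at an unadjusted p under 0.05.

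**Figure D4:**
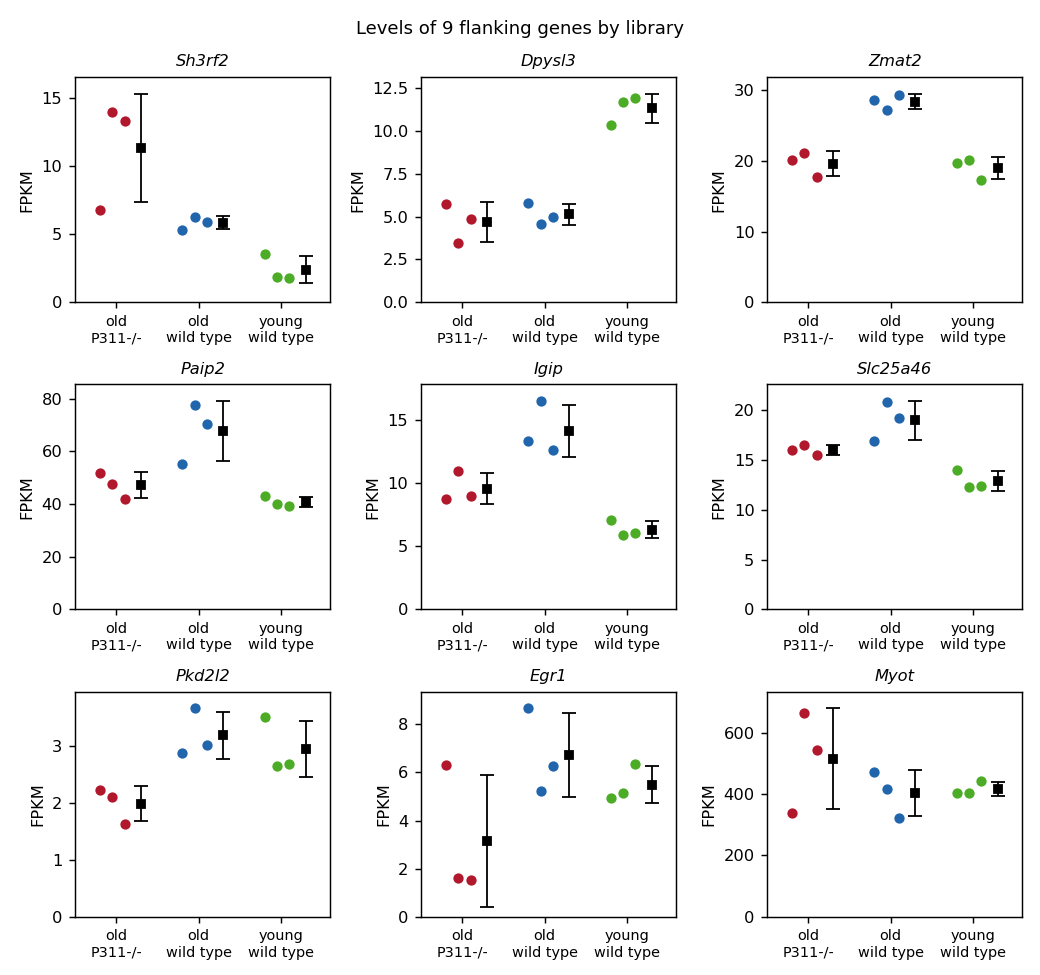
FPKM (vertical axis, from 0) of 9 flanking genes in each library (circles, replicates 1 to 3 from left to right) with the mean and SD of each group (black square and bar, n = 3), for old P311-/-, old wild type and young wild type. Zmat2, Paip2, Igip and Slc25a46 are highest in old wild type, Dpysl3 is lower in both old groups, and P311-/- replicate 1 is apart from replicates 2 and 3 for Sh3rf2, Egr1 and Myot.

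Old P311-/- muscle was also set against the mean of both wild-type groups, which carry the intact gene. All P311-/- mice were old, but this mean takes in young wild-type mice, so age and genotype are not separated in it. Here limma called 0 of the 150 members, against 0.141% of all genes tested. The voom fit called 1 member, Sh3rf2, and its share of all genes tested is not given here. At an unadjusted p under 0.05 there were 6 higher and 18 lower members, or 16.0% together, against 15.1% of all genes tested (7.88% higher and 7.27% lower). For 5 members, or 3.33%, all 3 P311-/- libraries lay outside the range of all 6 wild-type libraries, against 3.21% of all genes tested. Sh3rf2 and Ercc3 lay above them, where 1.66% of all genes tested did, and Pkd2l2, Cdh2 and Iws1 below, where 1.55% did. Cdh2, the cell adhesion molecule N-cadherin, had 0.383, 0.270 and 0.0985 FPKM in old P311-/- muscle, against 0.463, 0.546 and 0.647 FPKM in old wild type and 0.458, 0.653 and 0.420 FPKM in young wild type. Cdh2 reached the minimum of 0.5 FPKM only in wild-type libraries. The choice of members thus favoured its place below them, which carries no weight. Iws1, a partner of transcription elongation factors that was named after its values were seen, had 3.72, 4.02 and 3.55 FPKM in old P311-/- muscle, against 4.25, 4.58 and 4.37 FPKM in old wild type and 4.81, 4.62 and 4.61 FPKM in young wild type. Its log2 fold change against the mean of both wild-type groups was -0.27 (SE 0.09, adjusted p = 0.280 by limma), which did not pass the test.

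The predicted gene Gm94, at 10.31 Mb, was singled out after its values were seen because it was listed at 0 in every P311-/- library. Old wild-type libraries held 17, 11 and 44 of its reads, and young ones 1, 0 and 20. It was thus near 0 in some wild-type libraries too, and no fold is given. Gm94 became a member through wild-type libraries only, so its lower level in P311-/- muscle carries no weight. The adjusted p against old wild type was 0.242 by limma.

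Without P311-/- replicate 1, old P311-/- against old wild type gave 18 called members, 7 higher and 11 lower, in place of 0. They are 12% of the members, against 13.2% of all genes tested under the same fit (6.97% higher and 6.2% lower). Of the 80 members within 5 Mb, 10 were called. Against young wild type 25 members were called, or 16.7%, against 19.6% of all genes tested, and against the mean of both wild-type groups 22 were called, or 14.7%, against 16.7%. In these 3 comparisons the members' share was a little under that of all genes tested.

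Egr1 (ENSMUSG00000038418, chromosome 18, 34859823 to 34864984), an immediate early transcription factor at 1.40 Mb, shows how much the library weighs. It had 6.30, 1.61 and 1.52 FPKM in old P311-/- muscle, against 8.67, 5.22 and 6.28 FPKM in old wild type and 4.93, 5.15 and 6.36 FPKM in young wild type. P311-/- replicate 1 lay within the wild-type range and the other two far under it. The log2 fold change against old wild type was -1.36 (SE 0.46, adjusted p = 0.260 by limma) with all libraries and -2.0 (SE 0.21, adjusted p = 0.0029) without replicate 1.

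Pcdh12, a protocadherin of endothelial cells at 4.80 Mb, had 1.05, 0.286 and 0.437 FPKM in old P311-/- muscle, against 0.853, 1.62 and 1.37 FPKM in old wild type. Replicate 1 again lay within the old wild-type range, and without it the log2 fold change was -1.56 (adjusted p = 0.017 by limma), against -1.11 (adjusted p = 0.266) with it. Over the endothelial markers Pecam1 and Cdh5 the summed level was 36.1, 24.6 and 26.4 FPKM in old P311-/- muscle, against 24.5, 34.0 and 40.2 FPKM in old wild type. The part of endothelial cells in the Pcdh12 values was not tested.

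Fgf1, a fibroblast growth factor at 5.37 Mb, had 3.81, 8.50 and 7.17 FPKM in old P311-/- muscle, against 5.15, 3.96 and 2.56 FPKM in old wild type. Without replicate 1 it was called higher, with a log2 fold change of 1.04 (adjusted p = 0.039 by limma), against 0.70 (adjusted p = 0.320) with it. Sh3rf2 (1.21), Garem1, an adaptor of growth factor signalling (0.96), Mocos, the molybdenum cofactor sulfurase (0.71), Prob1 (0.61), Dele1, a mitochondrial stress relay (0.54), and Ankhd1 (0.46) were the other members called higher without it. Lower ones included Eif1a, a translation initiation factor (-0.89), Ap3s1, a subunit of the AP-3 coat (-0.83), Pkd2l2 (-0.75), Ppic, a cyclophilin (-0.72), Srp19 (-0.59), Paip2 (-0.58) and Zmat2 (-0.55), with Gm10549 at -2.01 and Gm94, listed at 0 in both P311-/- libraries left. Eif1a, Prob1, Ppic and Ankhd1 were named after their values were seen.

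Myot, a protein of the muscle Z-disc and the most abundant member, had 339, 663 and 546 FPKM in old P311-/- muscle, against 473, 417 and 323 FPKM in old wild type and 404, 402 and 444 FPKM in young wild type. The groups overlapped with all libraries. Without replicate 1, Myot was called only against the mean of both wild-type groups, with a log2 fold change of 0.56 (adjusted p = 0.040 by limma), against 0.29 (adjusted p = 0.508) with it. The summed muscle fibre markers were 30682, 44245 and 41458 FPKM in old P311-/- muscle, against 37606, 32275 and 30121 FPKM in old wild type, so they too were higher in P311-/- replicates 2 and 3 than in replicate 1. Their part in the Myot values was not tested.

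Read by role, no list of flanking genes had a call in old P311-/- against old wild type with all libraries. The 17 genes of RNA binding, processing and translation had a median log2 fold change of -0.09, with 12 below 0, and Zmat2, Paip2 and Srp19 among the lowest. The same list had 4 calls in old against young wild type, all higher (Matr3, Paip2, Zmat2 and Eif4ebp3), against 5.4% of all genes tested called, with a median of 0.21 and 15 of 17 above 0, against 7178 of all 14233 genes tested. The role lists were drawn up with earlier results of these data known, and their counts carry no test. Etf1, the translation termination factor of this list, gave a log2 fold change of 0.05 for old P311-/- against old wild type and 0.38 for old against young wild type, and neither passed the test.

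The 10 genes of mitochondria and metabolism had 3 calls with age, against 5.4% of all genes tested, with Slc25a46 and Ndufa2 higher and B4galt6 lower, and a median of -0.12 for old P311-/- against old wild type. Hspa9, the mitochondrial chaperone mortalin, stood at 92.9, 140 and 121 FPKM in old P311-/- muscle, against 123, 123 and 116 FPKM in old wild type and 85.4, 93.6 and 85.1 FPKM in young wild type. Replicate 1 of P311-/- lay with the young libraries, and neither comparison of Hspa9 with wild type passed the test. Gnpda1, which degrades glucosamine-6-phosphate, gave -0.78 for old P311-/- against young wild type (adjusted p = 0.097 by limma) and -0.58 for old against young wild type (adjusted p = 0.095).

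The 8 genes of muscle fibre and cytoskeleton had 6 members above 0 for old P311-/- against old wild type, with a median of 0.26 and no unadjusted p under 0.05. They included Myot, Bin1, Mapre2, a microtubule end-binding protein (0.29), and Fhod3, a formin of sarcomeric actin (0.28), and also Stard4, which is not a cytoskeletal protein. The 13 adhesion genes had a median of -0.18, with 10 below 0. Among them the clustered protocadherin Pcdhgc3 was higher in old P311-/- muscle at 2.11, 1.99 and 1.96 FPKM, against 1.32, 1.32 and 1.80 FPKM in old wild type, but did not pass the test (log2 fold change 0.44, SE 0.19, adjusted p = 0.306 by limma). The 6 clustered protocadherins among the members had a median of -0.47, and since genes of these clusters overlap, their reads may be split between them.

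The 21 genes of transcription and chromatin had a median of -0.03 for old P311-/- against old wild type. Nr3c1, the glucocorticoid receptor, had 15.4, 14.5 and 12.5 FPKM in old P311-/- muscle, against 15.4, 18.7 and 17.3 FPKM in old wild type, where the lowest old wild-type library stood just above the highest P311-/- library. The 15 signalling genes had a median of -0.04 and 1 unadjusted p under 0.05, that of Rnf125, a ubiquitin ligase of antiviral signalling. Rnf125 had 1.29, 1.38 and 1.59 FPKM in old P311-/- muscle, against 2.56, 2.90 and 2.42 FPKM in old wild type, with a log2 fold change of -0.84 (SE 0.26, adjusted p = 0.253 by limma). Ndfip1, an adaptor of ubiquitin ligases and 1 of the 5 most abundant members, averaged 94.6 ± 2.64 FPKM in old P311-/- muscle, 99.7 ± 6.95 FPKM in old wild type and 91.3 ± 5.05 FPKM in young wild type (SD, n = 3 each). The 13 genes of trafficking and ubiquitin had a median of -0.12, with Ap3s1 at -0.63 and Yipf5, a Golgi membrane protein, at -0.45 as the genes with the lowest p-values.

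Of the remaining named genes, Pura, a single-stranded nucleic acid binding protein, and Kctd1 gave -0.51 and -1.27 for old against young wild type, with adjusted p-values of 0.074 and 0.062 by limma. Pggt1b, a subunit of a protein prenyltransferase, gave -0.62 for old P311-/- against young wild type (adjusted p = 0.123). Longer flanking genes had higher log2 fold changes in old P311-/- against old wild type (Spearman's rho 0.19 across 150 genes) and lower ones in old against young wild type (-0.30). All genes tested gave 0.19 and -0.25, and the part of gene length in the members' values was not tested.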

How the data were processed

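The members and the role lists were chosen with earlier results of these data known. The deposited values were FPKM per gene and library. Per the submitters' processing notes, the tools were HISAT2 2.2.1, featureCounts 2.1.1 and DESeq2 1.42.0 and a build was mm39; options are unknown. The positions are those of GRCm38: of 54409 identifiers also in GENCODE M21, 98.3% had the same position there. Multiplying FPKM by the deposited gene length gave whole multiples of 1 step per library for 100% of values within a tolerance of 0.001. These recovered reads, 14222204 to 31910890 per library, served for depth, filtering and voom. The deposited unit being FPKM, no count model was the main test.

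Genes with at least 0.5 FPKM and at least 10 reads, each in at least 3 libraries, were tested with limma 3.58.1 in R 4.3.3 (mean-variance trend, robust moderation) on log2 of FPKM plus 0.1, all 9 libraries in 1 fit with group means. This scale understates changes of low genes. The method was tested on simulated data. Fold changes are first group over second. The named genes were the 6 nearest on each side, called members (up to 8 per comparison), the 4 of smallest p in each direction, the 5 of highest level and 2 per role list; others are marked as named after their values were seen. The labels do not say that replicate numbers pair the libraries, and the main fit did not pair them.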

Additional observations from a re-analysis of the deposited data

How the results depend on the processing

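The difference of Nrep in old P311-/- muscle kept its direction and call in the fits that leave out 1 library, at -3.25 to -2.64. Leaving out 1 library in turn gave 0 to 18 called members for old P311-/- against old wild type, 0 to 25 against young wild type, 0 to 14 for old against young wild type and 0 to 22 against the mean of both wild-type groups. The highest counts were those without P311-/- replicate 1, given above beside the shares of all genes tested. The difference in median absolute log2 fold change between members within 5 Mb and the rest ran from -0.074 to -0.011, the last without old wild-type replicate 3. With library quality weights, where P311-/- replicate 1 weighed 0.270 and replicate 3 2.54, the same 4 comparisons gave 25, 27, 19 and 31 calls, or 16.7%, 18%, 12.7% and 20.7% of the members, against 19.1%, 22.3%, 16.1% and 21.9% of all genes tested. Old P311-/- against young wild type gave 0 calls with no filter, 1 with total-count scaling and 0 in a fit of the 6 libraries alone. With no filter 0.0777% of all genes tested were called in that comparison, and with total-count scaling 0.239%. Old against young wild type gave 0 calls with no filter, against 0.0169% of all genes tested. It gave 3, or 2% of the members, with either total-count scaling (with and without mitochondrial genes), against 2.43% and 2.21% of all genes tested. Scaling by total count moved the median log2 fold change of all genes to -0.13 and -0.12 in the comparisons of old P311-/- and old wild type with young wild type. The voom fit gave 1 call against the mean of both wild-type groups. With a replicate block both comparisons with young wild type gave 0 calls. For voom, the replicate block and the fit of the 6 libraries, the share of all genes called is not given here. Same-numbered libraries correlated at -0.101 to 0.145 in their deviations, which gave no sign of pairing but cannot exclude it. The cause of these changes was not tested. No direction reversed for a called member under the alternatives run. Depth limits Eif4ebp3, Gm94, Gm10549 and Gm10269, which rest on at most 44 reads per library.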
